A study of Mus musculus with 92 samples.

Results

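A set of genes of the integrated stress response were followed through intestinal tissue, organoids and fetal spheroids in which the translation initiation factor gene Eif4g2 had been deleted, and through organoids treated with A-485. The members are Atf4, Ddit3, Atf3, Asns, Psat1, Phgdh, Chac1, Trib3 and Sesn2, which make up 9 of the 54532 gene rows of each count table. They were found by their gene name alone. A further identifier named Ddit3, of 105 bases, had 0 reads in all 92 libraries and was not used.

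The integrated stress response is a shared answer of mammalian cells to amino acid shortage, misfolded protein in the endoplasmic reticulum (ER), haem shortage, mitochondrial damage and viral RNA. Kinases that sense these states phosphorylate the alpha subunit of initiation factor eIF2, which lowers general protein synthesis while the messenger RNA of the transcription factor ATF4 is translated more. ATF4 then switches on genes for amino acid synthesis, amino acid uptake and tRNA charging, and feedback genes that damp the response. In the intestinal epithelium the response is known mainly from ER stress and from inflammation. RNA levels of these genes do not show the phosphorylation of eIF2 or the amount of ATF4 protein.

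The transcription factors are ATF4, its target CHOP (encoded by Ddit3) and ATF3. The enzymes are asparagine synthetase (Asns) and the serine synthesis enzymes PHGDH and PSAT1. The remaining genes are Chac1, which encodes an enzyme that degrades glutathione, Trib3, which encodes a pseudokinase that binds ATF4 and damps its activity, and Sesn2, which encodes a leucine-binding inhibitor of mTORC1 that is also a target of p53. In the coordinates of the count tables (GRCm38), Atf4 lies on chromosome 15 from 80255184 to 80257541, Ddit3 on chromosome 10 from 127290774 to 127296288, and Atf3 on chromosome 1 from 191170296 to 191218039. Asns lies on chromosome 6 from 7675169 to 7693254, Psat1 on chromosome 19 from 15904678 to 15947337, and Phgdh on chromosome 3 from 98313170 to 98339990. Chac1 lies on chromosome 2 from 119351229 to 119354381, Trib3 on the same chromosome from 152337422 to 152344032, and Sesn2 on chromosome 4 from 132492032 to 132510501. All 9 are annotated as protein coding, and the counts cover whole genes.

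ATF4 binds DNA with C/EBP partners at composite sites, and a short form of such a site, TGATGNAA, was searched on both strands in the 250 bases before each RefSeq gene start (GRCm38.p6). All 9 genes had a promoter in the RefSeq table, Psat1 with 2 entries. The letters were found in 3 of the 9, namely Atf3, Asns and Chac1, and in 1134 of all 32851 promoters (3.45%). The windows of 30 bases around these matches are shown because these genes moved in different directions in the results, with the match in capitals. They are written 5′ to 3′ on the strand of the gene, and in Atf3 and Chac1 the match reads on the opposite strand. The windows lie at chr1:191183425-191183454, chr6:7693214-7693243 and chr2:119351038-119351067, and the match lies 110 to 103 bases before the start in Atf3, 23 to 16 in Asns and 193 to 186 in Chac1.
Atf3: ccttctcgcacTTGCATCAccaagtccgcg
Asns: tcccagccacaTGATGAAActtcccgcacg
Chac1: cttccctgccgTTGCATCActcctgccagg

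RNA was sequenced from 92 mouse libraries in 21 groups. Tissue of Eif4g2(flox/flox), Rosa26(CreER) mice, called homozygous, and of Eif4g2(flox/+), Rosa26(CreER) mice, called heterozygous, was taken on day 9, all after tamoxifen, with crypts of 4 homozygous and 5 heterozygous mice and villi of 5 of each genotype. Rosa26 drives the tamoxifen-dependent recombinase CreER in most cell types of the body. Tissue of Eif4g2(flox/flox),Vil1(CreER) and Eif4g2(flox/+),Vil1(CreER) mice, in which CreER is restricted to the epithelium, was taken at 3 months after tamoxifen (100 mg/kg a day, 4 days), with crypts of 3 homozygous and 4 heterozygous mice and villi of 6 and 4. No tissue with intact Eif4g2 on both alleles was compared, and the ages of the mice are not given in the labels. Organoids, which are cultures of intestinal epithelium, and spheroids, which are cultures of fetal intestine, all carried Rosa26(CreER) and grew in ENR medium (EGF, Noggin and R-spondin). The first organoid set was Eif4g2(flox/flox), 3 lines with DMSO and the same 3 with 0.5 µM 4-hydroxytamoxifen (4-OHT) for 24 h, collected on day 6. The second set had 4 lines each of Eif4g2(flox/flox), Eif4g2(flox/+) and Eif4g2(+/+) organoids, all with 4-OHT and collected on day 6. Spheroids of 6 Eif4g2(flox/flox) and 5 Eif4g2(flox/+) lines received DMSO or 4-OHT and were collected on day 6. A-485, which blocks the acetyltransferase activity of p300 and CBP, was given at 3, 5 or 10 µM, or DMSO, to 4 organoid lines for 4 days. Line 1 was Eif4g2(+/+) and lines 2 to 4 were Eif4g2(flox/flox) without 4-OHT. Tissue libraries came from separate animals within a group, and cultures within a group were separate lines. Line 2 of the A-485 set and replicate 1 of the first organoid set carry the same line identifier, so these sets are not fully separate.

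Total counts ran from 8652040 to 37611126 per library, and were lowest in the A-485 set (8652040 to 16436145). Levels are CPM, the usual depth-scaled counts, after scaling within a set (Rosa26-CreER tissue, Vil1-CreER tissue, each organoid set, the A-485 set, the spheroids), so levels of different sets are set side by side without a test. Eif4g2 was lower in every homozygous than in every heterozygous or untreated library it was compared with, by log2 -1.98 ± 0.11 and -2.70 ± 0.11 in Rosa26-CreER crypts and villi, -0.99 ± 0.08 and -1.37 ± 0.12 in Vil1-CreER crypts and villi, -2.37 ± 0.08 in the first organoids, -1.73 ± 0.07 in the second and -2.82 ± 0.24 in spheroids (standard error, SE, here and after each ±, unless SD is named). In 4-OHT-treated Eif4g2(flox/+) spheroids it was lower than with DMSO by -0.81 ± 0.24, without passing the test (adjusted p = 1). The A-485 library of line 4 at 3 µM stood apart: 82 of 9944 genes with at least 20 reads in every other library of the set had 0 reads there. The same was true of 15 of 9941 genes in line 4 at 10 µM and of 55 of 10717 genes in 1 flox/flox spheroid library with 4-OHT (replicate 4). Of 11 spheroid lines, 4 (2 of each genotype) had a summed level of 6 crypt markers (Lgr5, Olfm4, Ascl2, Smoc2, Lyz1 and Mki67) of 3403 to 11212.5 CPM with DMSO, against 119 to 701 CPM in the other 7. In Rosa26-CreER tissue, Y-linked transcripts were present in all heterozygous libraries but in 1 of 4 homozygous crypt and 2 of 5 homozygous villus libraries, so that sex was unevenly spread over the genotypes. In bulk RNA, fewer cells of a type and less RNA per cell cannot be told apart.

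Expressed per kilobase of gene length, Atf4 was the highest of the 9 genes in heterozygous tissue. In Rosa26-CreER crypts its level was 41.2 ± 3.94 CPM per kb (SD, n = 5), followed by Asns at 18.1 ± 1.43, Phgdh at 13.5 ± 1.85, Psat1 at 6.19 ± 0.682 and Sesn2 at 4.40 ± 0.681. Atf3 (2.42 ± 1.16) and Ddit3 (2.10 ± 0.274) did not differ beyond their SD, nor did Chac1 (1.04 ± 0.426) and Trib3 (0.732 ± 0.152). In villi of the same mice Atf4 was at 40.5 ± 9.76 CPM per kb, within the SD of Atf3 at 26.2 ± 10.2, and the order behind them was different from that of crypts: Trib3 at 13.3 ± 3.63, Ddit3 at 7.25 ± 1.27 beside Sesn2 at 5.91 ± 1.09, which overlapped within their SD, and Asns at 3.59 ± 0.902, with Phgdh (0.636 ± 0.461), Psat1 (0.511 ± 0.227) and Chac1 (0.380 ± 0.324) within each other's SD. Cultures had the 3 synthesis enzymes near the top. In DMSO-treated organoids of the A-485 set, Asns was at 94.3 ± 3.28 CPM per kb (SD, n = 4), Phgdh at 79.0 ± 7.51, Psat1 at 58.9 ± 6.90 and Atf4 at 53.3 ± 2.71, where the last pair lay within their SD. In flox/+ spheroids with DMSO the order was Asns (79.2 ± 14.3, SD, n = 5), Phgdh (61.2 ± 15.7), Psat1 (33.4 ± 8.85), Atf4 (28.3 ± 8.30) and Sesn2 (16.3 ± 5.38), in which neighbours lay within their SD except Phgdh and Psat1.

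Crypts and villi of heterozygous mice came from the same animals, and the test did not pair them. They differed in most of these genes, against a wide background. In Rosa26-CreER mice 77.1% of 14793 tested genes were called (edgeR quasi-likelihood test, Benjamini-Hochberg adjusted p under 0.05), and in Vil1-CreER mice 67.9% of 15757. Beside these, 8 of the 9 members were called with each driver. The enzymes were higher in crypts. Phgdh, the first enzyme of serine synthesis, was 21.9-fold higher in Rosa26-CreER crypts (log2 4.45 ± 0.37, adjusted p = 4.1e-07) and 17.3-fold higher in Vil1-CreER crypts (4.11 ± 0.31). These folds are rough, since villus libraries had only 15 to 57 Phgdh reads with Rosa26-CreER and 8 to 32 with Vil1-CreER. Psat1 was 12.2-fold and 6.44-fold higher, and Asns 5.02-fold and 4.51-fold higher. Trib3 and the transcription factors of the response went the other way. Trib3 was 18.3-fold lower in Rosa26-CreER crypts than villi (log2 -4.20 ± 0.21, adjusted p = 6.2e-09). It was 15.5-fold lower in Vil1-CreER crypts, which had 9 to 51 reads per library. Atf3 was 10.97-fold and 27.3-fold lower, and Ddit3 3.48-fold and 4.52-fold lower. Every crypt library was on the same side of every villus library for these 6 genes with both drivers. How many of all tested genes were separated in this way was not counted. Sesn2 was lower in crypts by 0.43 ± 0.14, a call lost with any of 2 of the 10 libraries left out, and by 0.57 ± 0.13 on the log2 scale. Chac1 was higher in Rosa26-CreER crypts (1.45 ± 0.58, adjusted p = 0.037, lost with any of 5 of the 10 libraries left out) and differed by -1.13 ± 0.56 with Vil1-CreER (adjusted p = 0.097). Atf4 itself was called only with Vil1-CreER (-0.46 ± 0.09, adjusted p = 0.0014), and its Rosa26-CreER difference was 0.01 ± 0.15 with a 95% interval from -0.28 to 0.30. Among the 10 fixed lists of other genes of the pathway, amino acid synthesis enzymes followed the crypt side, 7 of 10 tested being higher in Rosa26-CreER crypts and 2 lower, with Pycr1, the last enzyme of proline synthesis, at log2 4.69 ± 0.31 and the transaminase Got1 at -2.26 ± 0.13. Of 13 genes for aminoacyl-tRNA synthetases and the tRNA exporter Xpot, 10 were higher in crypts, among them the isoleucine enzyme Iars (2.23 ± 0.11).

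**Figure D1:**
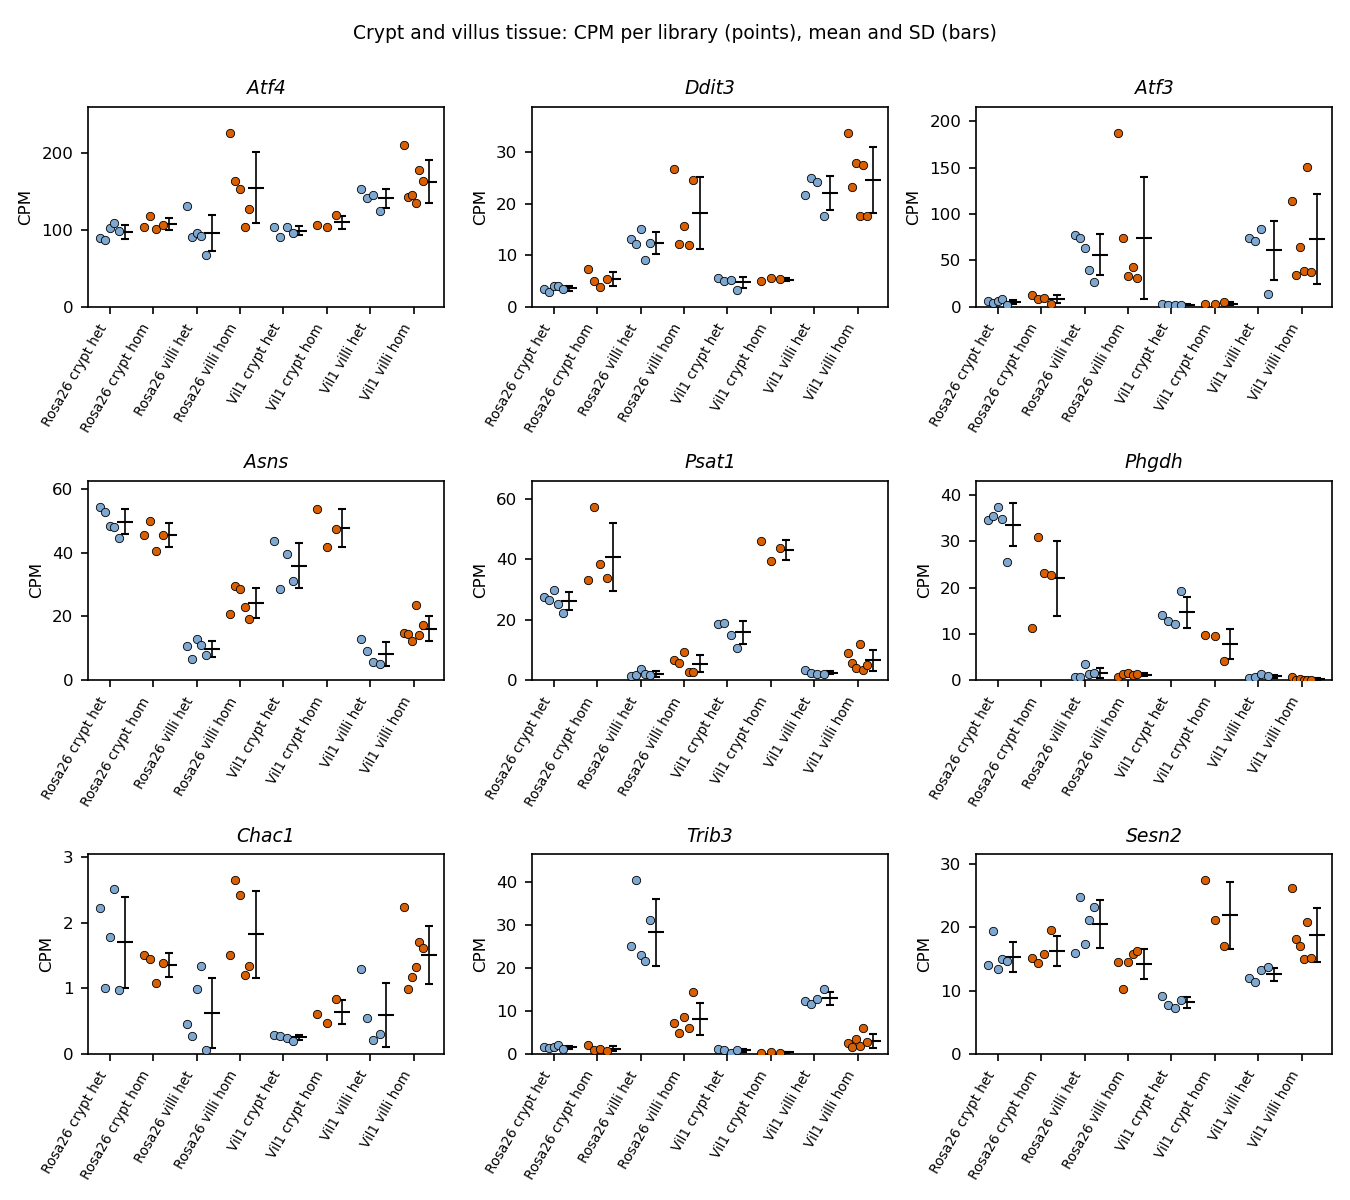
CPM of each of the 9 genes (one panel each, linear axis from 0) in each tissue library, blue for heterozygous and orange for homozygous, with the mean and SD beside the points. Asns, Psat1 and Phgdh sit highest in crypts and Trib3 and Atf3 in villi, and the homozygous villi of both drivers lie below the heterozygous villi for Trib3.

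In Rosa26-CreER villi on day 9, homozygous deletion was accompanied by higher Asns, Psat1 and Atf4 and by lower Trib3 and Sesn2. These are 5 of the 9 members, where 33.2% of 13579 tested genes were called. Asns, which makes asparagine, was at 20.7, 29.7, 28.5, 23.0 and 19.1 CPM in the 5 homozygous libraries and at 10.7, 6.76, 12.9, 10.9 and 7.90 CPM in the 5 heterozygous ones. Every homozygous library lay above every heterozygous one, and the fold was 2.37 (log2 1.24 ± 0.19, adjusted p = 0.00081). Trib3 was at 7.08, 4.87, 8.53, 6.01 and 14.4 CPM in homozygous villi against 25.04, 40.4, 22.9, 21.6 and 31.1 CPM in heterozygous villi. The groups did not overlap, and Trib3 fell by 1.83 ± 0.29 on the log2 scale (adjusted p = 0.001). Psat1, the second enzyme of serine synthesis, was at 6.70, 5.88, 9.21, 2.82 and 2.84 CPM against 1.57, 1.69, 3.88, 1.93 and 1.78 CPM, with 1 heterozygous library above the 2 lowest homozygous ones, and rose by log2 1.28 ± 0.39 (adjusted p = 0.024). Phgdh, which acts just before it, was at 1.25 ± 0.318 CPM against 1.58 ± 1.146 CPM (SD), a difference of log2 -0.39 ± 0.45 with an interval from -1.27 to 0.49.

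Atf4 in these villi was at 226, 164, 154, 103 and 127 CPM against 132, 90.8, 96.4, 91.7 and 67.5 CPM, and rose by 0.64 ± 0.22 (adjusted p = 0.039) with overlapping groups. That call was lost with no filter on low counts (adjusted p = 0.054) and when any of 7 of the 10 libraries was left out. Atf3 reached 187 CPM in 1 homozygous library and lay between 31.6 and 74.0 CPM in the other 4, against 27.0 to 77.5 CPM in heterozygous villi, and the difference of 0.34 ± 0.53 did not pass the test. Ddit3 differed by 0.50 ± 0.25 (adjusted p = 0.15). Sesn2 was at 14.5, 10.3, 14.5, 15.9 and 16.3 CPM against 16.02, 24.8, 17.3, 21.1 and 23.3 CPM, and fell by 0.57 ± 0.16 (adjusted p = 0.016). Chac1 had few reads, 26 to 55 per homozygous and 1 to 25 per heterozygous library, and its difference of 1.51 ± 0.57 had an adjusted p of 0.06. With a term for Y-linked transcripts, Psat1 kept its size (1.48 ± 0.49) but had an adjusted p of 0.051, and the other 4 calls stood. Since all heterozygous libraries had these transcripts, that fit compares them with the 2 of 5 homozygous libraries that had them too. The Psat1 call also ended when any of 6 of the 10 libraries was left out (adjusted p up to 0.062).

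Other genes of the pathway in Rosa26-CreER villi included 5 of 13 genes of the synthetase and Xpot list that rose, led by the glycine enzyme Gars (0.86 ± 0.09) and Iars (0.82 ± 0.12), and 6 of 10 ER chaperones that rose, led by Hspa5, the main ER chaperone BiP (0.87 ± 0.16). Among transcription factors related to ATF4, Atf5 rose by 1.60 ± 0.17, and of 5 eIF2alpha phosphatase subunits Ppp1r15a, the stress-induced feedback subunit, rose by 0.95 ± 0.23 and Ppp1r15b by 0.40 ± 0.12. Of 9 amino acid synthesis enzymes tested, Psph, the last enzyme of serine synthesis, rose (0.54 ± 0.16) and 3 fell, with Cth, which makes cysteine from cystathionine, lowest at -2.21 ± 0.22. The list medians were 0.24 for the synthetases, 0.56 for the ER chaperones and -0.27 for the synthesis enzymes, beside -0.01 for all genes. The summed level of 6 villus enterocyte markers was 37785 to 62303 CPM in homozygous and 41134 to 57041 CPM in heterozygous villi, and that of 10 immune markers 93.8 to 245 CPM against 155 to 463 CPM. Mitochondrial transcripts took 2.4 to 6.8% of counts in homozygous and 2.7 to 24.5% in heterozygous villi. The highest share was that of heterozygous replicate 3, the library with the highest Psat1 of its group. Their part in these values was not tested.

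In Rosa26-CreER crypts, 1 of the 9 members was called where 20.2% of 15846 tested genes were. Psat1 was at 33.3, 57.5, 38.3 and 33.9 CPM in homozygous and at 27.6, 26.6, 30.0, 25.2 and 22.2 CPM in heterozygous crypts. All homozygous libraries were above all heterozygous ones, with a log2 difference of 0.69 ± 0.18 (adjusted p = 0.029). The call ended with all 4 Rosa26-CreER groups in the fit (adjusted p = 0.14) and when any of 5 libraries was left out. With the Y-linked term the differences were 0.42 for Psat1, 1.10 for Ddit3 and -1.49 for Phgdh. Only homozygous replicate 1 had Y-linked transcripts, as all heterozygous libraries did, so the values with that term rest on 1 homozygous library. Without the term Ddit3 and Phgdh differed by 0.65 ± 0.21 and -0.55 ± 0.25 and did not pass. Asns, at 45.4 ± 3.75 against 49.6 ± 3.92 CPM (SD, n = 4 and 5), differed by -0.07 ± 0.09 with an interval from -0.25 to 0.11. The summed crypt markers were 1313 to 5959 CPM in homozygous against 13221 to 17976 CPM in heterozygous crypts, 10 immune markers had a median of 843 against 179 CPM, and mitochondrial transcripts took 13.7 to 25.2% against 6.24 to 12.4% of counts. Their part in these values was not tested. Of the lists, Pycr1 (-1.57 ± 0.26), Cth (-1.45 ± 0.26) and Aldh18a1 (-0.58 ± 0.15) fell among 10 synthesis enzymes, the transporters Slc1a4, Slc7a1 and Slc1a5 fell among 10 tested, and the death receptor gene Tnfrsf10b, a target of CHOP and of p53, rose by 1.18 ± 0.11. Of 8 other ATF4 and CHOP targets tested 2 rose and 1 fell.

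The effect of genotype was then compared between villi and crypts of the Rosa26-CreER mice in 1 model, which did not pair the libraries of an animal. It differed for 2 of the 9 members and for 11.5% of 16495 genes. The villus effect on Asns exceeded the crypt effect by log2 1.43 ± 0.22 (adjusted p = 0.0009), and that on Trib3 was lower by 1.40 ± 0.44 (adjusted p = 0.048). The Asns difference kept its call in every alternative fit, and the Trib3 difference lost it when any of 15 of the 19 libraries was left out. Crypt Trib3 was low in both genotypes, at 1.20 ± 0.600 and 1.55 ± 0.322 CPM (SD).

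Vil1-CreER villi at 3 months had 6 called members, where 42.5% of 15107 genes were called. Trib3 again fell. Its level in the 6 homozygous libraries was 1.64 at the lowest, 2.66 at the median and 5.90 CPM at the highest, against 12.2, 11.7, 12.7 and 15.0 CPM in the 4 heterozygous ones. The groups did not overlap, and the fall was 2.11 ± 0.30 on the log2 scale, or 4.33-fold (adjusted p = 0.00012). Asns ranged from 12.4 to 23.4 CPM with a median of 14.7 CPM against 13.1, 9.27, 5.66 and 4.97 CPM, and rose by 0.96 ± 0.26 (adjusted p = 0.0097). Psat1 ranged from 3.36 to 12.2 CPM with a median of 5.35 CPM against 3.32, 2.49, 2.19 and 2.24 CPM. It rose by 1.34 ± 0.35 without overlap (adjusted p = 0.0079). Phgdh fell by 1.91 ± 0.59 (adjusted p = 0.02), from levels near the detection limit, with 2 to 17 reads per homozygous and 8 to 32 per heterozygous library, and the call ended without heterozygous replicate 3 (adjusted p = 0.074).

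Chac1 in Vil1-CreER villi was at 0.994 to 2.24 CPM, median 1.47 CPM, against 1.29, 0.541, 0.215 and 0.308 CPM, and rose by 1.37 ± 0.45 (adjusted p = 0.026). Without heterozygous replicate 1, the one that overlapped, the difference was 2.03, and without any of the other 3 heterozygous libraries the call was lost. Sesn2 was at 15.0 to 26.3 CPM, median 17.6 CPM, against 12.0, 11.4, 13.3 and 13.7 CPM. It rose by 0.55 ± 0.17 without overlap (adjusted p = 0.017), and the sign was opposite to that in Rosa26-CreER villi. The call ended without heterozygous replicate 1 (adjusted p = 0.051) or replicate 2 (0.059). The drivers differ in time and count table, and the difference between them was not tested. Atf4 (0.18 ± 0.13, interval -0.06 to 0.43), Ddit3 (0.13 ± 0.19) and Atf3 (0.25 ± 0.58) did not pass. Among the lists, 7 of 13 genes of the synthetase and Xpot list rose, with Iars at 1.14 ± 0.23, and Wars, the tryptophan enzyme, fell (-0.61 ± 0.17). The cationic amino acid transporter Slc7a3 rose by 4.94 ± 0.39, Ppp1r15a by 1.32 ± 0.39, Atf5 by 1.20 ± 0.19 and Hspa5 by 0.80 ± 0.17, while Cth fell by 1.11 ± 0.12. Enterocyte markers summed to 25398 to 44380 CPM against 28884 to 35495 CPM, and 10 immune markers to 59.4 to 229 CPM in homozygous against 298 to 525 CPM in heterozygous villi, without overlap. Their part was not tested.

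Vil1-CreER crypts had 3 called members, all higher in homozygous mice, beside 29.3% of 16954 genes called. Psat1 was at 46.1, 39.5 and 43.8 CPM against 18.6, 18.98, 15.0 and 10.7 CPM, and rose by 1.45 ± 0.19, or 2.73-fold (adjusted p = 0.0013). Sesn2 was at 27.5, 21.2 and 17.1 CPM against 9.19, 7.80, 7.18 and 8.59 CPM, and rose by 1.42 ± 0.17, or 2.68-fold (adjusted p = 0.00074). Neither gene's groups overlapped. Chac1 had 16 to 24 reads per homozygous and 8 to 12 per heterozygous library, and its rise of 1.34 ± 0.39 (adjusted p = 0.033) lost its call in DESeq2 (adjusted p = 0.056), with no filter (0.09) in 3 other fits and with any of 5 of the 7 libraries left out. Phgdh, in contrast to Psat1, was lower in all 3 homozygous libraries, at 9.81, 9.60 and 4.16 CPM against 14.2, 12.8, 12.1 and 19.3 CPM, with an adjusted p of 0.071 for -0.89 ± 0.32. Of the lists, 7 of 13 genes of the synthetase and Xpot list rose, led by Xpot (0.63 ± 0.08), and 6 of 10 ER chaperones fell, with Herpud1, a component of ER-associated degradation, at -0.81 ± 0.10. Tnfrsf10b rose by 1.49 ± 0.14, Psph by 0.90 ± 0.17 and the CHOP and p53 target Bbc3 by 1.01 ± 0.23, while Cth fell by 2.04 ± 0.15. Crypt markers summed to 631 to 1277 CPM in homozygous against 7173 to 9687 CPM in heterozygous crypts, and mitochondrial transcripts took 30.4 to 40.3% against 17.5 to 30.8% of counts. Their part was not tested.

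Between Vil1-CreER villi and crypts the genotype effect differed for 1 of 9 members, beside 15.5% of 17821 genes. The effect on Sesn2 was smaller in villi by 0.85 ± 0.25 on the log2 scale (adjusted p = 0.031). The call was lost with no filter (adjusted p = 0.057) and when any of 5 libraries was left out. Of 10 ER chaperones, 6 fell and 0 rose in crypts, 4 rose and 1 fell in villi, and 6 had a higher villus than crypt effect, led by the protein disulfide isomerase Pdia4 (1.37 ± 0.22).

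**Figure D2:**
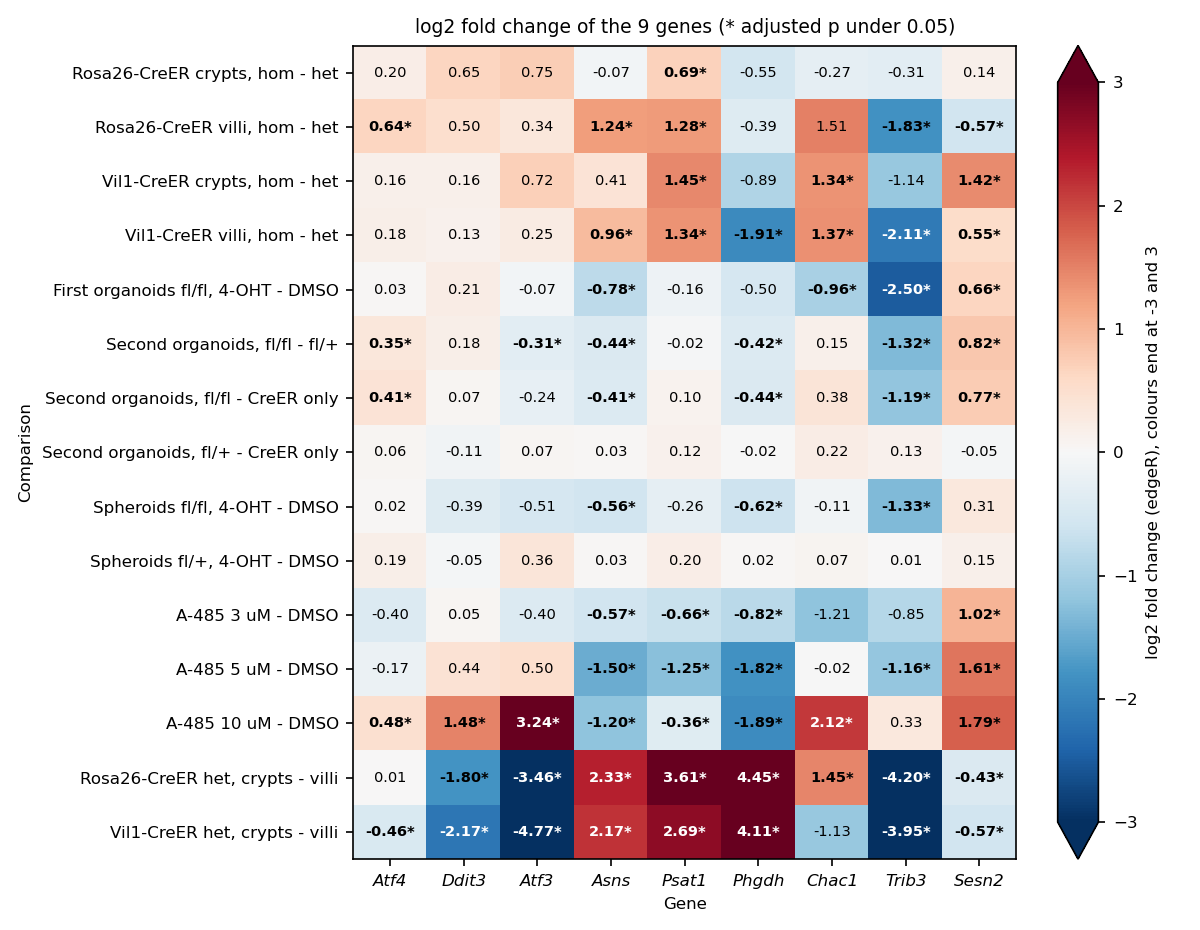
Log2 fold change of each member (columns) in 15 comparisons (lines of the grid, first group minus second), with red for higher and blue for lower, colours ending at -3 and 3, and an asterisk where the adjusted p was under 0.05. Trib3 is blue in every comparison with homozygous deletion, with an asterisk in 6 of them, while Psat1 carries an asterisk for a rise in all 4 tissue comparisons and in none of the organoid or spheroid deletions. The Psat1 calls in Rosa26-CreER crypts and villi were lost in some alternative fits.

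In the first organoid set, 4-OHT in Eif4g2(flox/flox) lines went with lower Trib3, Asns and Chac1 and higher Sesn2. These are 4 of the 9 members, where 35.4% of 15297 genes were called. The set had no 4-OHT-treated flox/+ or Eif4g2(+/+) line, so deletion and 4-OHT exposure cannot be told apart in it. Trib3 was at 19.3, 17.3 and 19.6 CPM with DMSO and at 3.22, 3.81 and 2.91 CPM with 4-OHT in the same lines. It fell 5.65-fold (log2 -2.50 ± 0.15, adjusted p = 0.0002), and the largest 4-OHT value was below the smallest DMSO value. Asns was at 183, 152 and 116 CPM against 84.1, 85.0 and 94.1 CPM, and fell by 0.78 ± 0.16 (adjusted p = 0.0091). Chac1 fell from 8.90, 8.79 and 5.22 to 3.03, 4.31 and 4.43 CPM (-0.96 ± 0.26, adjusted p = 0.026). That call was lost when the A-485 set was added to the fit (adjusted p = 0.27) and when any of 3 of the 6 libraries was left out. Sesn2 rose from 51.8, 51.3 and 46.5 to 71.4, 69.7 and 94.6 CPM (0.66 ± 0.13, adjusted p = 0.0081). Atf4, at 200 ± 8.40 and 205 ± 18.7 CPM (SD, n = 3), differed by 0.03 ± 0.09 with an interval from -0.15 to 0.21. Psat1 (-0.16 ± 0.26), Phgdh (-0.50 ± 0.18, adjusted p = 0.073), Ddit3 (0.21 ± 0.16) and Atf3 (-0.07 ± 0.46) did not pass.

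Other genes in this set included Cth, which fell by 2.33 ± 0.14, and Pycr1 by 1.30 ± 0.31, 2 of 4 falls among 10 synthesis enzymes. Tnfrsf10b rose by 1.41 ± 0.13, Ppp1r15a by 0.89 ± 0.25 and Slc7a3 by 1.62 ± 0.26, and of 10 ER chaperones 4 fell, led by Herpud1 (-0.98 ± 0.16). Of 10 other ATF4 and CHOP targets tested 2 rose and 2 fell. Crypt markers summed to 432 to 559 CPM with 4-OHT and to 1975 to 2401 CPM with DMSO, and enterocyte markers to 4331 to 6424 against 9198 to 12848 CPM. Their part in these values was not tested.

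The second organoid set compared 3 genotypes under the same 4-OHT. Between flox/flox and flox/+ organoids 6 of 9 members were called, beside 46.8% of 14220 genes. Trib3 was at 7.14, 6.68, 4.04 and 4.29 CPM in flox/flox, at 12.1, 14.5, 15.0 and 13.6 CPM in flox/+ and at 11.9, 11.3, 13.6 and 13.5 CPM in Eif4g2(+/+) organoids. It fell by 1.32 ± 0.17 against flox/+ (adjusted p = 1.9e-05), with no overlap. Sesn2 was at 26.2, 26.9, 21.8 and 25.9 CPM against 16.4, 11.6, 15.9 and 13.4 CPM in flox/+, and rose by 0.82 ± 0.15 (adjusted p = 0.00043). Atf4 was at 317, 321, 288 and 286 CPM against 268, 225, 230 and 230 CPM. It rose by 0.35 ± 0.07, or 1.27-fold (adjusted p = 0.00083), again without overlap. Asns fell by 0.44 ± 0.11 (adjusted p = 0.0047) and Phgdh by 0.42 ± 0.12 (adjusted p = 0.0098). Atf3 fell by 0.31 ± 0.12 (adjusted p = 0.045), a call that DESeq2 did not make (0.053) and that ended when any of 6 of the 8 libraries was left out (adjusted p up to 0.15). Psat1 differed by -0.02 ± 0.12, within an interval from -0.25 to 0.20, Ddit3 by 0.18 ± 0.17 and Chac1 by 0.15 ± 0.24.

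Against Eif4g2(+/+) organoids the flox/flox lines are the same libraries, so these values are not a separate test. There 5 of 9 members were called, with 45.3% of genes: Trib3 (-1.19 ± 0.17), Sesn2 (0.77 ± 0.15), Atf4 (0.41 ± 0.07), Asns (-0.41 ± 0.11) and Phgdh (-0.44 ± 0.12). Between flox/+ and Eif4g2(+/+) organoids 0 members were called by edgeR or DESeq2 and 0 had an unadjusted p under 0.05, and 0.113% of 14220 genes were called. The intervals of the member differences there lay between -0.43 and 0.69. Of the lists, 7 of 8 eIF2 and eIF2B subunits fell in flox/flox against flox/+ organoids by small amounts, the largest being Eif2b1 (-0.47 ± 0.09). Ppp1r15a (0.91 ± 0.13), Ppp1r15b (0.60 ± 0.06) and Tnfrsf10b (1.65 ± 0.14) rose, and Nupr1 (-1.66 ± 0.11), a stress-induced transcription cofactor, Cth (-1.47 ± 0.10), Ddit4 (-1.11 ± 0.14) and the cystine transporter gene Slc7a11 (-1.06 ± 0.26) fell. Crypt markers summed to 2237 to 3310 CPM in flox/flox, 8329 to 9695 CPM in flox/+ and 8401 to 10118 CPM in Eif4g2(+/+) organoids, and enterocyte markers to 3583 to 6530, 3499 to 7554 and 4582 to 7863 CPM. Their part was not tested.

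**Figure D3:**
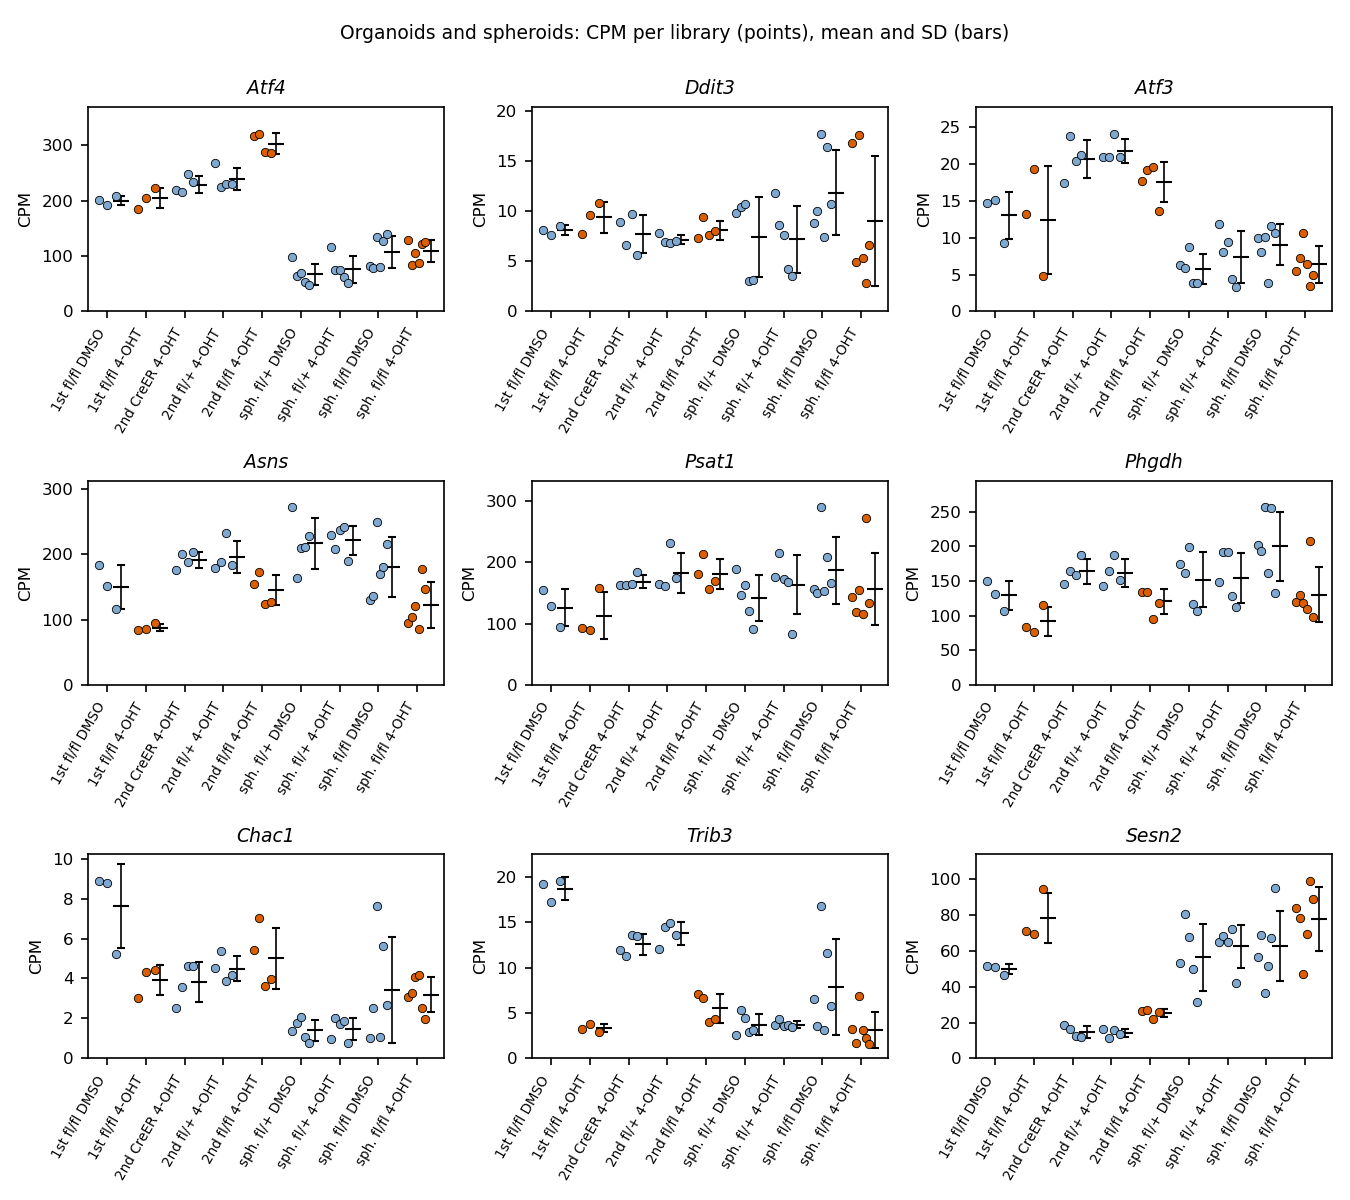
CPM of each of the 9 genes (one panel each, linear axis from 0) in each library of the first and second organoid sets and of the spheroids, with orange for flox/flox cultures after 4-OHT, blue for all others, and the mean and SD beside the points. Trib3 is lower in the orange than in the blue points of both organoid sets, and Atf4 is higher by mean in each of these organoid groups than in each spheroid group.

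In fetal spheroids, 4-OHT in flox/flox lines went with lower levels of 3 of the 9 members, where 19.1% of 15032 genes were called. Trib3 was at 3.17 CPM at the lowest, 6.14 at the median and 16.8 at the highest with DMSO and at 1.60, 2.72 and 6.93 CPM with 4-OHT in the same 6 lines. The groups overlapped, and Trib3 fell by 1.33 ± 0.40 (adjusted p = 0.025). Asns ranged from 130 to 249 CPM (median 175 CPM) with DMSO and from 86.2 to 178 CPM (median 112 CPM) with 4-OHT, and fell by 0.56 ± 0.18 (adjusted p = 0.034). Phgdh ranged from 133 to 257 CPM (median 197 CPM) against 97.4 to 207 CPM (median 119 CPM), and fell by 0.62 ± 0.21 (adjusted p = 0.041). With the 2 compared groups alone all 3 calls ended (Trib3 and Asns adjusted p = 0.085, Phgdh 0.06), and leaving out 1 of the 12 libraries ended the Trib3 call for 5 libraries, the Asns call for 6 and the Phgdh call for 9. With the lines as a replicate block the calls of these 3 genes stood (Trib3 -1.27 ± 0.31, Asns -0.58 ± 0.14, Phgdh -0.63 ± 0.11) and Sesn2 joined them (0.33 ± 0.11, adjusted p = 0.049). Without the 4-OHT library that stood apart (replicate 4), Asns (-0.48 ± 0.18, adjusted p = 0.08) and Phgdh (-0.57 ± 0.22, adjusted p = 0.084) lost the call, and with only the lines of low crypt markers Asns (-0.46 ± 0.23, adjusted p = 0.2) and Phgdh (-0.46 ± 0.24, adjusted p = 0.23) lost it while Ddit3 passed (-1.19 ± 0.30, adjusted p = 0.015). Atf4 differed by 0.02 ± 0.21, with an interval from -0.39 to 0.44. In the same lines 4-OHT went with a lower median of the summed enterocyte markers (141 against 3066 CPM with DMSO) and crypt markers (217 against 443 CPM), whose ranges overlapped, and their part was not tested.

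In flox/+ spheroids 4-OHT gave 0 called members and 0% called genes. In edgeR 0 members and 15 genes had an unadjusted p under 0.05, and DESeq2 called 0 genes. The test did not pair the 5 lines, whose deviations from the group mean correlated at 0.62 to 0.84 between DMSO and 4-OHT. The 15 genes are fewer than chance gives at that limit, so this result does not show that 4-OHT had no effect. With the lines as a replicate block 1 of 13933 genes was called, and no member call changed. The member differences of the unpaired test lay between -0.05 (Ddit3) and 0.36 (Atf3), and the interval for Asns ran from -0.36 to 0.42. Between flox/flox and flox/+ spheroids, both with 4-OHT, Asns was the only called member, beside 10.5% of genes: it was at 86.2 to 178 CPM against 230, 208, 237, 241 and 190 CPM, lower in every flox/flox line, by 0.86 ± 0.19 (adjusted p = 0.0058). With the low-crypt lines alone its adjusted p was 0.058, and with the replicate number as a block, which does not pair these lines, 0.074. Between the genotypes with DMSO, 0 members and 0% of genes were called, with 3 members (Atf4 at 0.68 ± 0.22, Chac1 and Trib3) and 1084 genes at an unadjusted p under 0.05 and 2 genes called in DESeq2. Mean Trib3 in flox/flox against flox/+ lines was 7.90 against 3.70 CPM with DMSO and 3.14 against 3.73 CPM with 4-OHT. Mean Phgdh was 200 against 152 CPM and then 131 against 155 CPM, and mean Asns 180 against 217 CPM and then 122 against 221 CPM. The effect of 4-OHT itself differed between genotypes for 0 members and 1.62% of genes. In that test 3 members had an unadjusted p under 0.05, Trib3 (-1.34 ± 0.59), Asns (-0.60 ± 0.27) and Phgdh (-0.64 ± 0.31), and DESeq2 called 0 members. In the lists for flox/flox spheroids, Herpud1 (-1.38 ± 0.12), Cth (-1.86 ± 0.52), Pycr1 (-1.44 ± 0.33), Nupr1 (-1.11 ± 0.30) and Slc38a1 (-1.14 ± 0.29) fell with 4-OHT and Tnfrsf10b rose (1.46 ± 0.27).

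Flox/+ spheroids and flox/+ adult organoids of the second set, both with 4-OHT and in 1 table, differed in 5 of 9 members and 47.9% of 14522 genes. Sesn2 was 4.75-fold higher in spheroids (log2 2.25 ± 0.19, adjusted p = 4.6e-05). Trib3 (-1.76 ± 0.15), Atf4 (-1.53 ± 0.20), Chac1 (-1.49 ± 0.33) and Atf3 (-1.44 ± 0.33) were lower in spheroids, and the libraries of the groups did not overlap for any of the 5. The share of all genes without overlap was not counted. Asns (0.30 ± 0.11, adjusted p = 0.056), Phgdh (0.06 ± 0.17), Psat1 (-0.05 ± 0.24) and Ddit3 (0.12 ± 0.33) did not pass. Of 13 genes of the synthetase and Xpot list 10 were lower in spheroids, led by Aars (-1.23 ± 0.09), the alanine enzyme. The spheroids here include 2 lines with high crypt markers. Enterocyte markers summed to 32.8 to 3386 CPM in spheroids and 3499 to 7554 CPM in organoids, and crypt markers to 163 to 7247 against 8329 to 9695 CPM. Stromal, muscle and endothelial markers (10 genes) summed to 3.17 to 169 against 0.421 to 1.91 CPM. Immune markers overlapped (2.05 to 29.8 against 2.47 to 4.18 CPM). These levels were scaled within each set, and their part in the members' values was not tested.

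A-485 moved the members in different directions as the dose rose. Asns and Psat1 were lowest by mean at 5 µM, Phgdh was lowest at 5 and 10 µM, Sesn2 was higher at every dose, and Atf3, Chac1, Ddit3 and Atf4 were higher than in DMSO at 10 µM. Called members numbered 4, 5 and 8 of 9 at 3, 5 and 10 µM, beside 19.2%, 49.6% and 62% of 13724 genes. The DMSO libraries are shared by the 3 doses, so the doses are not separate tests.

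Atf3, a stress-induced transcription factor, was at 7.38, 4.15, 6.62 and 6.11 CPM with DMSO in lines 1 to 4, at 6.39, 4.37, 3.66 and 3.89 CPM at 3 µM, at 11.2, 6.85, 7.57 and 8.57 CPM at 5 µM and at 35.4, 56.9, 93.8 and 44.2 CPM at 10 µM. The 10 µM libraries lay above all others, 9.48-fold above DMSO (log2 3.24 ± 0.30, adjusted p = 3.4e-08). Chac1 was at 10.2, 4.47, 5.49 and 3.09 CPM with DMSO and at 18.1, 29.6, 39.6 and 13.4 CPM at 10 µM, and rose by 2.12 ± 0.56 (adjusted p = 0.0033). Ddit3 was at 3.54, 5.99, 3.07 and 3.86 CPM against 9.53, 12.7, 12.8 and 10.96 CPM, and rose by 1.48 ± 0.58 (adjusted p = 0.035). Atf4 was at 127, 129, 131 and 116 CPM against 146, 182, 205 and 167 CPM, and rose by 0.48 ± 0.19 (adjusted p = 0.035). All 4 genes were above DMSO in every line at 10 µM. The share of all genes that did so was not counted. With lines 1 to 3 alone the Ddit3 (1.47 ± 0.30) and Atf4 (0.46 ± 0.11) differences kept their size, but with no filter on low counts their adjusted p was 0.066 and 0.056. Each of these calls also ended when any of 6 of the 8 libraries was left out, with adjusted p up to 0.086 for Ddit3 and 0.1 for Atf4, and 5 to 7 members were called at 10 µM with 1 library left out.

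Asns was at 269, 256, 247 and 260 CPM with DMSO, 142, 174, 177 and 202 CPM at 3 µM, 80.7, 93.7, 78.6 and 113 CPM at 5 µM and 88.5, 115, 118 and 129 CPM at 10 µM. It fell at each dose against DMSO, by 0.57 ± 0.13, 1.498 ± 0.14 (adjusted p = 1e-07) and 1.20 ± 0.14 on the log2 scale. Phgdh was at 217, 177, 185 and 207 CPM with DMSO, 111, 138, 130 and 65.5 CPM at 3 µM, 71.0, 63.2, 45.2 and 43.8 CPM at 5 µM and 42.1, 78.9, 56.9 and 33.1 CPM at 10 µM. It fell by 0.82 ± 0.25 (adjusted p = 0.029), 1.82 ± 0.26 and 1.89 ± 0.26, and every treated library lay below every DMSO library. Without line 4 the fall at 3 µM was 0.61 ± 0.22 (adjusted p = 0.066), and its call ended with any of 4 of the 8 libraries left out. Psat1 was at 286, 237, 218 and 262 CPM with DMSO, 160, 170, 141 and 164 CPM at 3 µM, 117, 104, 74.5 and 125 CPM at 5 µM and 171, 201, 200 and 211 CPM at 10 µM. It fell by 0.66 ± 0.14, 1.25 ± 0.14 and 0.36 ± 0.14 (adjusted p = 0.031 at 10 µM, a call that ended with any of 4 of the 8 libraries left out), so that the level at 10 µM lay between those of DMSO and 5 µM.

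Sesn2 was at 22.9, 23.3, 23.0 and 16.4 CPM with DMSO, 55.0, 47.9, 39.5 and 30.8 CPM at 3 µM, 68.2, 60.9, 56.7 and 76.0 CPM at 5 µM and 65.9, 90.9, 80.0 and 59.2 CPM at 10 µM. It rose 2.03-fold, 3.06-fold and 3.46-fold (adjusted p = 0.00074, 1.3e-06 and 1.4e-07), and no treated library overlapped DMSO. Trib3 was at 11.6, 11.5, 14.7 and 13.6 CPM with DMSO, 9.74, 5.12, 7.15 and 6.55 CPM at 3 µM, 5.99, 3.89, 4.00 and 9.15 CPM at 5 µM and 6.59, 16.2, 24.2 and 17.5 CPM at 10 µM. It fell at 5 µM by 1.16 ± 0.34 (adjusted p = 0.0092), and at 10 µM it was below DMSO in line 1 and above it in lines 2 to 4 (0.33 ± 0.33, interval -0.33 to 0.98). Line 4 at 3 µM had 0 reads of Ddit3 and of Chac1 in 9334286 counts and 48.9 CPM of Atf4, against 107 to 115 CPM in the other 3 lines at that dose. For these genes no change was called at 3 µM with or without that library, except that with lines 1 to 3 alone Chac1 passed at -1.03 ± 0.34 (adjusted p = 0.038).

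**Figure D4:**
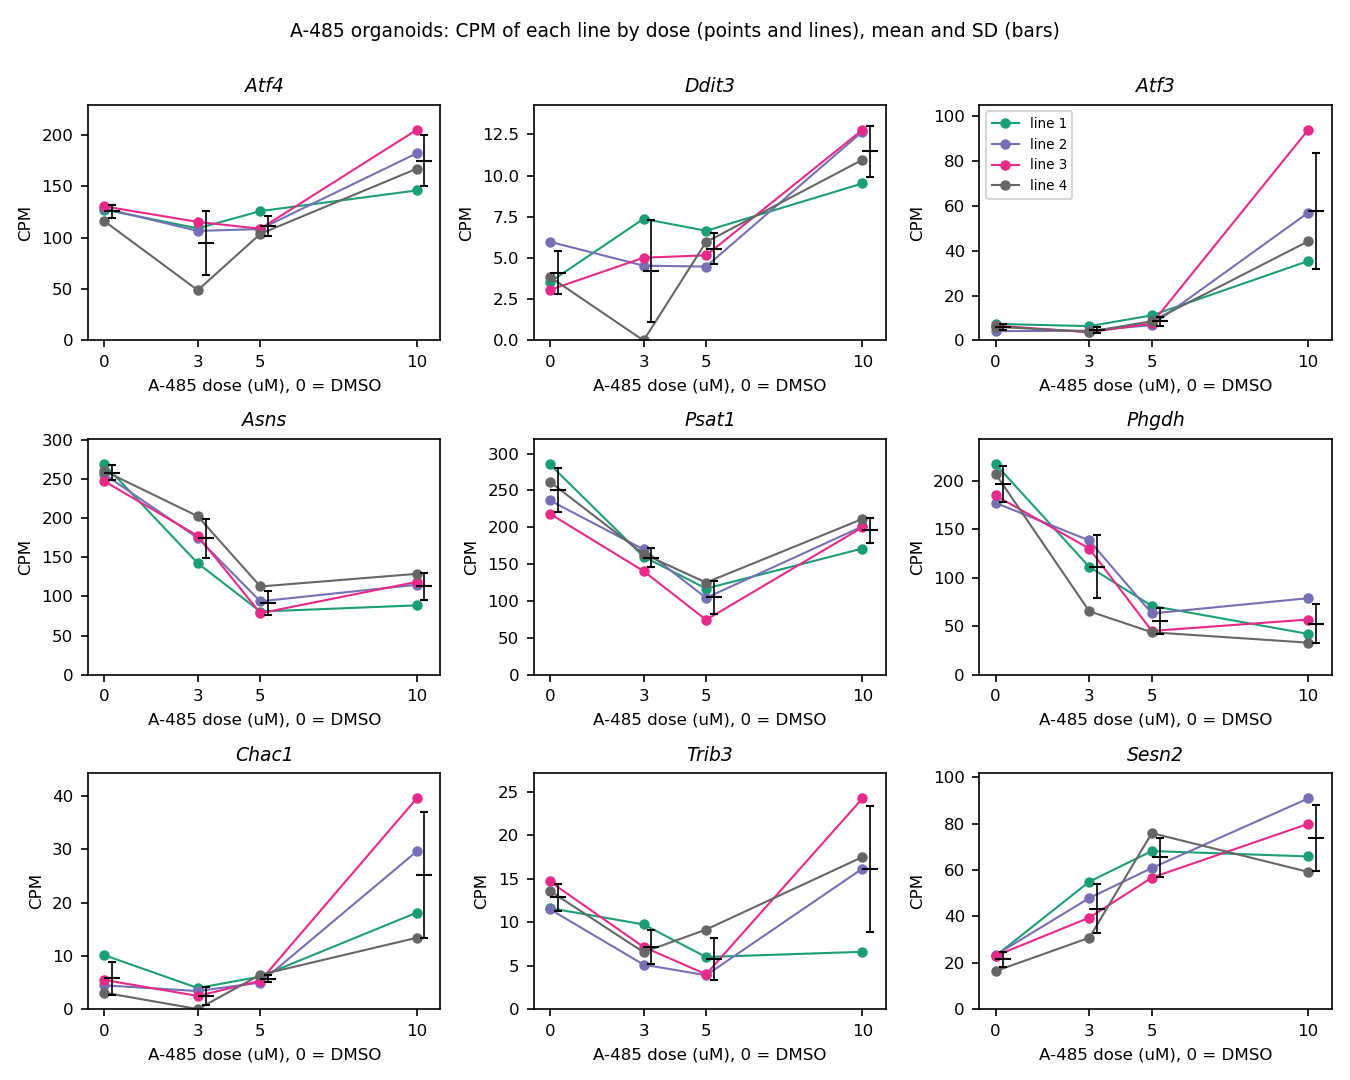
CPM of each of the 9 genes (one panel each, linear axis from 0) against the dose of A-485 in µM, 0 being DMSO, with one coloured line per organoid line and the mean and SD beside the points. Atf3 and Chac1 stay low up to 5 µM and are highest at 10 µM in all 4 lines, Asns and Psat1 are lowest by mean at 5 µM, and line 4 dips at 3 µM for Atf4, Ddit3 and Chac1.

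Neighbouring doses were also compared. From 3 to 5 µM 5 of 9 members were called, beside 24.5% of genes: Asns (-0.93 ± 0.14), Phgdh (-0.995 ± 0.25) and Psat1 (-0.59 ± 0.14) fell and Sesn2 (0.59 ± 0.18) and Atf3 (0.90 ± 0.29, adjusted p = 0.032) rose. Without the 3 µM library of line 4 Atf3 was at 0.83 ± 0.32 with an adjusted p of 0.061, and its call ended with any of 5 of the 8 libraries left out and that of Sesn2 with any of 2. From 5 to 10 µM 5 of 9 members rose, beside 18.9% of genes called: Atf3 (2.75 ± 0.29, adjusted p = 2e-06), Chac1 (2.14 ± 0.56), Trib3 (1.49 ± 0.35), Psat1 (0.90 ± 0.14) and Atf4 (0.65 ± 0.19), whose call ended with any of 3 of the 8 libraries left out. Sesn2 differed by 0.18 ± 0.18 and Phgdh by -0.08 ± 0.25 over that step. With the lines as a replicate block Asns also passed (0.30 ± 0.10, adjusted p = 0.041, against 0.14 without the block).

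Among the other genes at 10 µM, Ppp1r15a rose by 2.56 ± 0.27, Tnfrsf10b by 2.86 ± 0.15, the autophagy receptor gene Sqstm1 by 1.66 ± 0.13 and Eif2ak2, which encodes the kinase that senses double-stranded RNA, by 1.60 ± 0.16. For comparison, 29.4% of all tested genes were called higher and 32.6% lower at this dose. Of 10 other ATF4 and CHOP targets tested 4 rose and 3 fell, and of 5 eIF2alpha phosphatase subunits 4 rose and 1 fell. Of 4 eIF2 kinases 3 rose and 1 fell, and of 8 eIF2 and eIF2B subunits 0 rose and 5 fell. Of 10 synthesis enzymes 6 fell, with the mitochondrial folate enzyme Mthfd1l at -2.56 ± 0.15 and Cth at -2.29 ± 0.14, and Psph rose (0.61 ± 0.20). Of 13 genes of that list of synthetases and Xpot 8 fell and 2 rose (Wars 0.90 ± 0.09, Aars 0.49 ± 0.13), and 5 of 6 genes of the mitochondrial list fell, with the mitochondrial chaperone Hspd1 at -2.31 ± 0.16. The medians at 10 µM were -1.40 for the synthesis enzymes, -0.34 for the synthetases and -1.19 for the mitochondrial list, beside -0.05 for all genes. Crypt markers summed to 7686 to 9534 CPM with DMSO, 1055 to 2150 CPM at 3 µM, 427 to 457 CPM at 5 µM and 113 to 135 CPM at 10 µM, and enterocyte markers to 4811 to 9728 CPM with DMSO and 83.0 to 361 CPM at 10 µM. Their part in the members' values was not tested. Eif4g2 did not pass the test at any dose (0.20 ± 0.13 at 10 µM).

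Across all 92 libraries, each minus the mean of its set, the members did not vary as 1 group. These correlations are descriptions, since libraries of a set share genotype, tissue and depth. Asns followed Psat1 (Pearson r = 0.845) and Psat1 followed Phgdh (0.770), while Atf3 followed Ddit3 (0.754) and ran against Phgdh (-0.792). Atf4 followed Chac1 (0.700) and Ddit3 (0.697) but hardly Psat1 (-0.032) or Asns (-0.195). Within sets the sign could change: Asns and Trib3 had r = -0.956 in Rosa26-CreER tissue, where crypts and villi are the main contrast, and 0.913 in the second organoids, where genotype is. Among 8776 genes with at least 5 CPM on average in every set, the patterns most like Atf4 were those of Aars (0.747) and Ddit3, and Atf4 itself was the nearest to Chac1. Chac1 and Trib3 were below that level in some sets and so could not be ranked as neighbours. The nearest to Psat1 was Hmgn1 (0.929), to Phgdh D10Wsu102e (0.930), to Asns Stil (0.890), to Trib3 Ormdl3 (0.889), to Atf3 Mafk (0.886), to Ddit3 Atg4d (0.858) and to Sesn2 Abcc5 (0.779).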

How the data were processed

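RNA of crypt and villus tissue, organoids and spheroids was sequenced as poly(A) libraries with a strand-marking kit, per the labels' protocols. HISAT2 2.0.5 and the builds GRCm38 and mm10 are named in the submitters' processing notes, and the counter and annotation are not given in the sources used here. The values are raw counts per gene, deposited by the authors in 4 tables of 54532 gene rows for 92 libraries. All else was computed from them. Samples were grouped by their labels into 21 groups. The members and the 10 lists (85 genes) were chosen with earlier results of these data known.

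Each comparison was fitted with edgeR 4.0.16 (quasi-likelihood test, robust, two-sided, filterByExpr, TMM scaling; R 4.3.3), with p-values adjusted by Benjamini-Hochberg over all tested genes and called below 0.05. Intervals are 95%. The 20 comparisons and 3 differences of effects used the compared groups, or all groups of the A-485, second organoid or spheroid set. Depth ran from 8652040 to 37611126 counts. Low counts were too few for firm values of Chac1 in tissue and of Phgdh in villi. Named list genes were the called ones with the largest change in each direction (at most 3 a list, mean of at least 1 CPM). Likeness used log2 CPM with a prior count of 2.

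Alternatives were DESeq2 1.42.0, its size factors, no filter, other sample sets, a Y-linked term, a replicate block and each library left out. The fits without A-485 line 4, or without spheroid lines of high crypt markers, were chosen after the values were seen. The fits were checked on simulated counts. No library pair of a group agreed within sampling noise. Same-numbered samples came from the same line or animal in the first organoids, the A-485 doses, the spheroid 4-OHT comparisons and crypts against villi. Their deviations correlated at 0.32 to 0.50 in the first organoids, 0.32 to 0.76 in flox/flox and 0.62 to 0.84 in flox/+ spheroids. In the A-485 set the values were 0.05 to 0.30. Crypts and villi gave -0.002 to 0.17 with Rosa26-CreER and 0.05 to 0.30 with Vil1-CreER. The own partner was the closest library for 2 of 5 and 3 of 4 of these pairs.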

Additional observations from a re-analysis of the deposited data

Results flagged for a closer look

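Of 162 member and group combinations with 4 to 10 libraries, 16 had a highest or lowest library far from the others, where chance gives about 5 in 100. In organoids of the A-485 set, Atf4 in line 4 at 3 µM was at 48.9 CPM (nearest 107 CPM), in the library that stood apart, and Sesn2 in line 4 with DMSO was at 16.4 CPM (nearest 22.9 CPM). In flox/+ organoids, Atf4 of replicate 1 was at 268 CPM (nearest 229.9 CPM), Ddit3 of the same library at 7.85 CPM (nearest 6.99 CPM) and Atf3 of replicate 3 at 24.1 CPM (nearest 20.98 CPM). In Eif4g2(+/+) organoids, Psat1 of replicate 4 was at 184 CPM (nearest 164 CPM).

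In Rosa26-CreER villi, Atf3 of homozygous replicate 1 was at 187 CPM (nearest 73.98 CPM) and Psat1 of heterozygous replicate 3 at 3.88 CPM (nearest 1.93 CPM). In heterozygous Rosa26-CreER crypts, Phgdh of replicate 5 was at 25.6 CPM (nearest 34.5 CPM) and Sesn2 of replicate 2 at 19.4 CPM (nearest 14.99 CPM). Phgdh of replicate 1 of homozygous Vil1-CreER villi was at 0.761 CPM (nearest 0.262 CPM).

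In flox/flox spheroids with 4-OHT, replicate 5 had Psat1 at 272 CPM (nearest 154 CPM) and Phgdh at 207 CPM (nearest 130.4 CPM), and replicate 3 had Trib3 at 6.93 CPM (nearest 3.21 CPM). In flox/+ spheroids with 4-OHT, Trib3 of replicate 2 was at 4.34 CPM (nearest 3.69 CPM) and Sesn2 of replicate 5 at 41.9 CPM (nearest 65.0 CPM).

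The genotype effect differed between villi and crypts for 3 values, each tested as a difference of effects: Asns (1.43 on the log2 scale) and Trib3 (-1.40) with Rosa26-CreER, and Sesn2 (-0.85) with Vil1-CreER. The Trib3 and Sesn2 values lost their call with single libraries left out.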

How the results depend on the processing

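Of 207 member values, 85 were called, and 66 of these kept their call and direction in all alternatives other than leaving out a library, 61 also with each library left out. No called value changed sign. The number of called members in Rosa26-CreER crypts (1) was 2 with DESeq2 and 0 with all 4 groups, leaving aside the Y-linked term, which rests on 1 homozygous library there. In flox/flox spheroids (3) it was 1 with no filter and 0 with the compared groups alone, and between genotypes with 4-OHT (1) it was 0 with the replicate block and 0 with the low-crypt lines alone. With no filter the effects differed between villi and crypts for 1 member with Rosa26-CreER and 0 with Vil1-CreER. Leaving out each library gave 0 to 1 members in Rosa26-CreER crypts, 3 to 5 in villi, 2 to 3 and 4 to 6 in Vil1-CreER crypts and villi, 3 to 5 in the first organoids, 3 to 4, 5 and 5 to 7 at 3, 5 and 10 µM, 3 to 5 and 4 to 6 between doses, 5 to 6 in both comparisons of flox/flox second organoids, 0 to 3 in flox/flox spheroids, 1 to 2 between genotypes with 4-OHT, 6 to 8 and 8 to 9 for crypts against villi, 5 to 6 for spheroids against organoids, and 1 to 2 and 0 to 2 for the differences of effects. The cause was not tested.

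Pairing by line (replicate block) changed 2 member calls, Asns from 5 to 10 µM and Sesn2 in spheroids. Where replicates share only a number, the block ended 4 calls: Chac1 in Vil1-CreER crypts (1.21 ± 0.52), Phgdh and Sesn2 in Vil1-CreER villi, and Asns between spheroid genotypes. It added Asns in Vil1-CreER crypts (adjusted p = 0.034). Called genes over the whole table moved by over 1.5 times in several fits: 4649 with the block against 2864 in flox/flox spheroids, 140 against 1577 between spheroid genotypes with 4-OHT (880 with the compared groups alone), 3079 against 5422 in the first organoids with the A-485 libraries, 2967 against 4504 in Rosa26-CreER villi with the Y-linked term, 2229 against 3358 from 3 to 5 µM with those groups alone, 2891 (DESeq2) and 1221 (no filter) against 1904 for the Rosa26-CreER difference of effects, 572 and 123 against 243 for the spheroid one, and 145 (DESeq2), 60 (no filter) and 4 (block) against 16 between flox/+ and Eif4g2(+/+) organoids.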
